A study of Mus musculus with 20 samples.

Results

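The step from D4 to D6 of neural differentiation was examined in TKO cells of ES-E14TG2a (E14), an embryonic stem cell line from mouse. Its members are 4 libraries of 20, the 2 biological replicates labelled TKO D4 and the 2 labelled TKO D6. The series holds WT and TKO cells of this line, grown without feeders in serum and LIF at D0 and then plated on laminin in plain N2B27 medium for neural progenitor differentiation up to D8. The labels give the genotype as TKO without saying what it stands for or whether the cells are 1 clone, and the WT cells at D4 and D6 (2 libraries each, same line, medium and days) serve as the comparison. Polyadenylated RNA was sequenced with a strand-specific protocol. The labels call the replicates biological, and whether they came from separate cultures is not described. P-values therefore measure only the spread between replicate libraries, estimated over all 20 libraries together, which may be technical.

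In N2B27 without LIF, embryonic stem cells leave the pluripotent state and pass through a neural plate-like stage marked by Sox1. Progenitors then take up radial glial genes under Notch signalling, and proneural basic helix-loop-helix factors switch Notch ligands and neuronal genes on in the cells that leave the cell cycle. Many germline genes have CpG-rich promoters that are kept silent in somatic cells by DNA methylation.

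Levels are CPM, estimated counts scaled by the library total and TMM factor, and n = 2 libraries in every mean ± SD. A gene "rose" or "fell" only where edgeR's quasi-likelihood test over 18555 genes called the change after Benjamini-Hochberg adjustment, with an adjusted p under 0.05. List counts and medians are over members tested. They are to be read against all genes tested, of which 24.7% rose and 23.4% fell in TKO. Counts of members with a higher or a lower step in TKO than in WT are to be read against 8.54% and 8.55% of all genes. The 4 libraries held 27445109 to 35016995 counts. On the first principal component (70.9% of the variance of 500 genes) the TKO libraries moved from 15.65 and 18.63 at D4 to 38.19 and 41.94 at D6, while WT moved from 18.48 and 18.63 to 53.4 and 54.31. As a check of the genotype label, 3 DNA methyltransferase genes were read as possible targets. Dnmt1, the maintenance enzyme, stood at 85.6 and 96.7 CPM at D4 and 77.5 and 87.9 CPM at D6 in TKO and 433 ± 22.3 and 390.0 ± 22.8 CPM in WT. Dnmt3a, a de novo enzyme, stood at 7.87 and 8.89 CPM at D4 and 9.21 and 9.33 CPM at D6 in TKO and 89.0 ± 4.75 and 106 ± 2.80 CPM in WT. Dnmt3b, the other de novo enzyme, stood at 32.5 and 28.1 CPM at D4 and 18.9 and 19.12 CPM at D6 in TKO and 274 ± 9.24 and 48.5 ± 2.62 CPM in WT. All 3 were lower in both TKO libraries than in both WT libraries at D4 and at D6, and which genes the label stands for was not tested.

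Between D4 and D6 in TKO, 4577 genes rose (24.7% of those tested) and 4341 fell (23.4%), with a median log2 fold change of 0.02 over all genes. In WT 5072 rose (27.3%) and 4832 fell (26.0%). A direct test of the difference called 1585 genes with a higher step in TKO than in WT (8.54%) and 1587 with a lower one (8.55%). Of the genes that rose in TKO, 3229 (70.5%) also rose in WT and 178 (3.9%) fell there. Changes of at least 2-fold were unequal in direction in TKO, where 1806 rose and 658 fell, 73.3% higher. In WT 1589 rose and 1532 fell by as much, 50.9% higher. The higher share of 2-fold calls in TKO was 75.1% with relative log expression scaling and 76.0% with DESeq2, and 860 of the 1806 genes reached 5 CPM at D4 or D6.

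**Figure D1:**
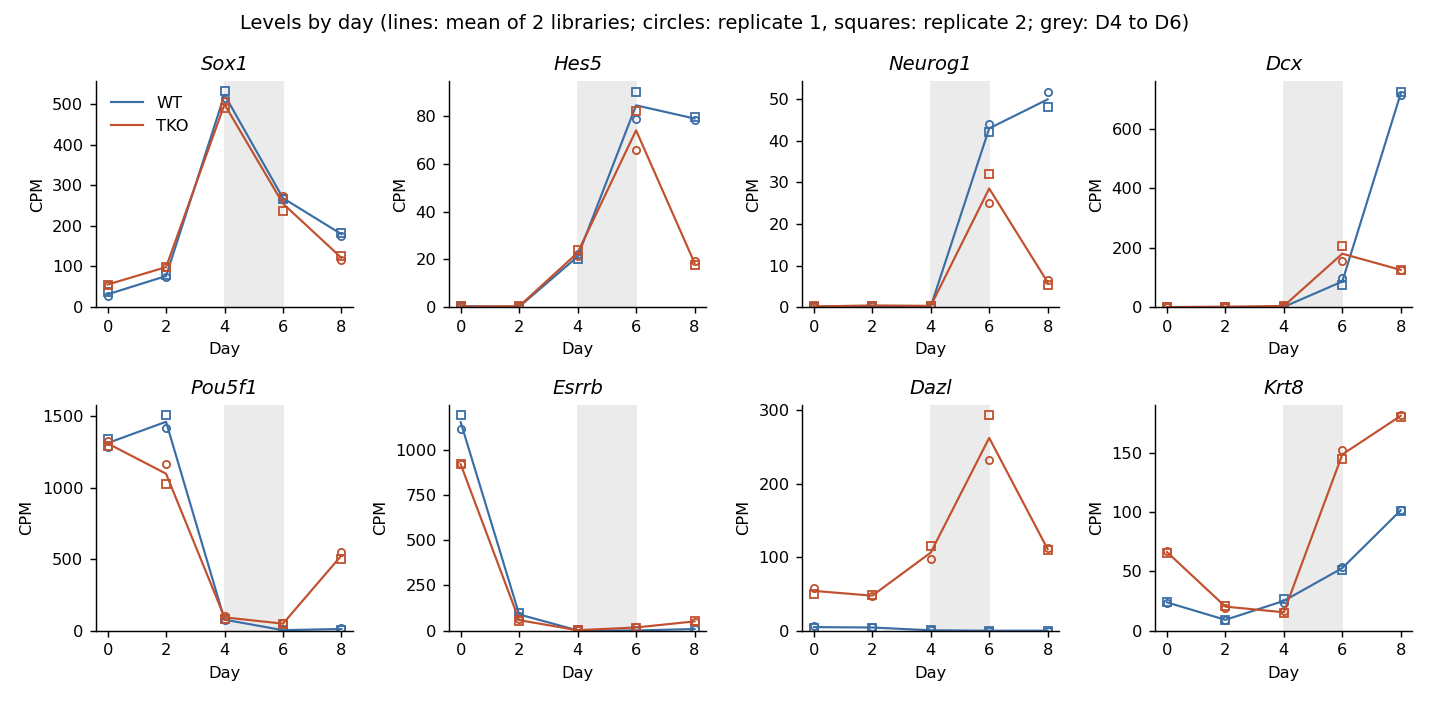
Levels of 8 genes in CPM (vertical axis, from 0) against day of differentiation, for WT and TKO, with each library as a point and the mean of 2 libraries as a line, and the step from D4 to D6 shaded. In TKO the neural genes Hes5, Neurog1 and Dcx, the germline gene Dazl, the keratin Krt8 and the naive pluripotency gene Esrrb are higher at D6 than at D4 in both libraries, and Sox1 and Pou5f1 are lower.

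The stage of the TKO cells was read first from neural progenitor genes. Early neural plate genes went both ways. Sox1, a transcription factor of the neural plate, stood at 507 and 491 CPM at D4 and 272 and 237 CPM at D6. Both D6 libraries lay below both D4 libraries (log2 fold change -0.97, SE 0.09, adjusted p = 1.41e-07), and WT went from 523 to 268 CPM on average. Pax6, a progenitor transcription factor, was at 116 and 121 CPM at D4 and 126 and 133 CPM at D6 and did not pass (log2 fold change 0.12, SE 0.06, adjusted p = 0.111), with 145 ± 5.82 and 212 ± 12.0 CPM in WT. Nes, the progenitor intermediate filament, was at 279 and 289 CPM at D4 and 308 and 347 CPM at D6. It rose by less than in WT (log2 fold change 0.20, SE 0.08, adjusted p = 0.0442), where it was at 184 ± 21.7 and 405 ± 16.3 CPM, and the 2 steps differed (log2 difference -0.93, SE 0.11, adjusted p = 1.73e-05). In TKO Nes lost its call under 6 of 12 alternatives, among them without TKO D4 replicate 1, TKO D4 replicate 2 or TKO D6 replicate 2 (adjusted p = 0.0545 to 0.407 over those 6). Sox2, shared by pluripotent and neural progenitor cells, stood at 131 and 136 CPM at D4 and 149.7 and 145 CPM at D6 and did not pass (log2 fold change 0.14, SE 0.06, adjusted p = 0.0645). It did pass with DESeq2 (adjusted p = 0.0179), with relative log expression scaling (0.0289) and in a fit of the 2 groups alone (0.0431).

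Of the neural plate and early neural list, 9 of 22 members tested rose and 6 fell (median log2 fold change 0.20). Pou3f3, a POU factor of neural progenitors, went from 21.5 ± 1.58 to 87.8 ± 13.9 CPM and its relative Pou3f2 went from 50.0 ± 6.28 to 137 ± 16.1 CPM. Both rises were smaller than in WT (log2 differences of -1.60 and -1.21). Zic1, a dorsal neural zinc finger factor, fell from 10.9 ± 0.259 to 3.99 ± 0.314 CPM. Of the radial glia and neural stem cell genes, 16 of 23 members tested rose and 2 fell (median log2 fold change 0.62), and 16 rose and 3 fell in WT (median 0.94). Fabp7, the brain lipid-binding protein of radial glia, stood at 17.9 and 18.9 CPM at D4 and 67.6 and 101 CPM at D6. Hes5, a Notch effector, stood at 21.5 and 24.1 CPM at D4 and 66.0 and 82.2 CPM at D6. Both genes were more than 2-fold higher in each D6 library than in each D4 library (log2 fold change 2.20, SE 0.17, adjusted p = 3.34e-08 for Fabp7; log2 fold change 1.70, SE 0.12, adjusted p = 4.34e-09 for Hes5). Ednrb, an endothelin receptor of progenitors, rose from 75.3 ± 6.48 to 234 ± 18.5 CPM, and Ptn, which encodes the growth factor pleiotrophin, and Dbi were the members that fell, Ptn from 469 ± 7.08 to 156 ± 27.0 CPM and Dbi from 62.2 ± 0.936 to 46.3 ± 2.77 CPM. The test of the difference gave 3 radial glia members a higher and 8 a lower step in TKO than in WT.

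Many genes that set positions in the neural tube were also higher at D6. In the dorsoventral list 12 of 22 members tested rose and 2 fell (median log2 fold change 1.31). Dbx1, a marker of intermediate ventral progenitors, stood at 6.18 and 8.72 CPM at D4 and 153 and 205 CPM at D6. The D6 level was 24.2-fold that of D4 (log2 fold change 4.60, SE 0.16, adjusted p = 2.11e-12), against 7.79 ± 0.254 and 302 ± 23.7 CPM in WT. Pax3 of the dorsal tube rose from 2.29 ± 0.644 to 22.5 ± 2.54 CPM, and Nkx6-1 and Nkx2-2 of the ventral tube rose from 3.36 ± 0.580 to 27.2 ± 6.45 CPM and from 0.852 ± 0.130 to 5.54 ± 0.456 CPM. Of these, Pax3 had a larger step in TKO than in WT (log2 difference 1.70, SE 0.28, adjusted p = 0.00038). Msx3 and Olig3, both dorsal, were the members that fell, Msx3 from 4.93 ± 0.0619 to 3.18 ± 1.03 CPM and Olig3 from 9.05 ± 2.09 to 4.11 ± 0.241 CPM. Msx3 lost its call under 7 of 12 alternatives, among them without TKO D4 replicate 1, TKO D4 replicate 2 or TKO D6 replicate 2 (adjusted p = 0.0502 to 0.339 over those 7).

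Along the head-to-tail axis, 7 of 21 members tested rose and 2 fell (median log2 fold change 0.19) in the forebrain to hindbrain list. Pax8, a factor of the midbrain-hindbrain boundary and of ear and kidney, stood at 0.486 and 0.0661 CPM at D4 and 12.2 and 14.7 CPM at D6. In WT it was at 0.678 ± 0.00479 and 0.683 ± 0.405 CPM, and the step was higher in TKO (log2 difference 5.48, SE 0.57, adjusted p = 3.15e-06). Pax2, its paralog, rose from 1.23 ± 0.156 to 21.1 ± 2.61 CPM, to a level close to that of WT D6 (18.3 ± 1.50 CPM). Otx2, a forebrain and primed pluripotency factor, rose from 3.28 ± 0.620 to 10.6 ± 3.19 CPM, whereas it fell in WT (4.45 ± 0.616 and 2.93 ± 0.116 CPM; log2 difference 2.30, SE 0.30, adjusted p = 3.95e-05). Gbx2, an anterior hindbrain factor, and Fgf8, the boundary signal, were the members that fell, Gbx2 from 62.9 ± 5.85 to 22.2 ± 2.18 CPM and Fgf8 from 2.08 ± 0.612 to 1.02 ± 0.109 CPM. Fgf8 lost its call without TKO D4 replicate 1 (adjusted p = 0.24), without TKO D6 replicate 1 (0.065) and without TKO D6 replicate 2 (0.113). Among Hox and Cdx genes 12 of 25 members tested rose and 6 fell (median log2 fold change 0.71), while 5 rose and 10 fell in WT (median -0.72). Hoxb8 rose from 1.84 ± 0.312 to 16.7 ± 2.09 CPM and Hoxd8 from 3.01 ± 0.415 to 6.12 ± 0.917 CPM, and the 3' gene Hoxb2 fell from 13.4 ± 0.579 to 7.54 ± 1.94 CPM. Hoxb2 rose in WT (43.9 ± 4.71 and 60.7 ± 0.831 CPM; log2 difference -1.30, SE 0.18, adjusted p = 6.85e-05). Without TKO D6 replicate 2, 7 Hox and Cdx members rose, and Hoxd8 lost its call with length-scaled counts (adjusted p = 0.0961).

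**Figure D2:**
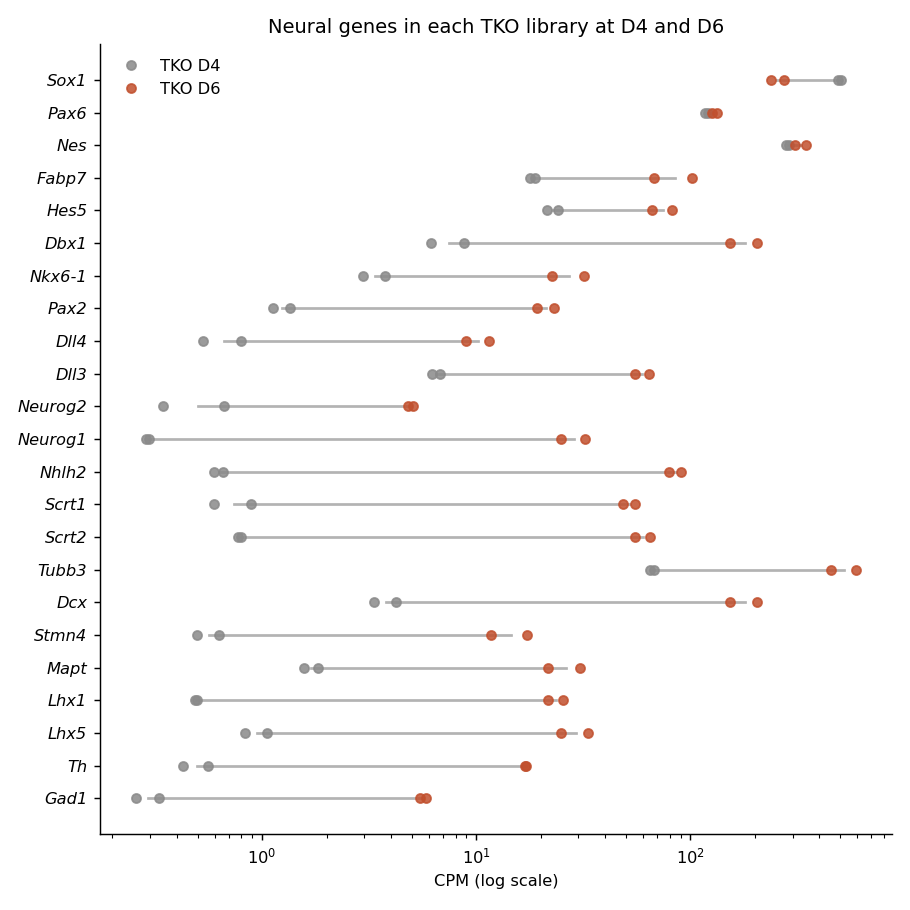
Level of 23 neural genes in CPM (horizontal log axis) in each TKO library, grey for D4 and red for D6, with a line between the group means. At the top Sox1 is lower at D6 and Pax6 and Nes lie close together on the 2 days, and from Fabp7 downwards each gene has both D6 libraries above both D4 libraries.

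Members of the Notch pathway and proneural factors rose at this step. In the Notch list 13 of 21 members tested rose and 3 fell (median log2 fold change 0.78). Dll4, a Notch ligand, stood at 0.801 and 0.529 CPM at D4 and 8.95 and 11.5 CPM at D6. Dll3, a ligand-like antagonist, stood at 6.75 and 6.21 CPM at D4 and 54.9 and 64.4 CPM at D6. In both cases the D6 libraries lay well above those of D4 (log2 fold change 3.92, SE 0.25, adjusted p = 1.02e-09 for Dll4; log2 fold change 3.20, SE 0.12, adjusted p = 1.27e-12 for Dll3). Nrarp, a target and inhibitor of Notch signalling, rose from 39.8 ± 0.509 to 145 ± 24.3 CPM. Jag2, Hey2 and Dlk1 were the members that fell, Jag2, a ligand, from 67.7 ± 0.447 to 39.8 ± 1.02 CPM, Hey2, a target, from 4.08 ± 0.394 to 1.99 ± 0.0212 CPM and Dlk1, an imprinted non-canonical ligand, from 11.7 ± 0.299 to 4.45 ± 1.00 CPM. Dlk1 rose in WT (5.51 ± 0.880 and 13.0 ± 2.00 CPM; log2 difference -2.64, SE 0.24, adjusted p = 8.38e-07). In this list 1 member had a higher and 8 a lower step in TKO than in WT.

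Of the proneural factors, 18 of 20 members tested rose and 0 fell (median log2 fold change 3.28), and 2 did not pass. Neurog1, a proneural factor of sensory and ventral neurons, stood at 0.286 and 0.297 CPM at D4 and 25.0 and 32.1 CPM at D6. Nhlh2, a helix-loop-helix factor of newborn neurons, stood at 0.658 and 0.595 CPM at D4 and 79.8 and 89.9 CPM at D6. Neither gene reached 1 CPM in a D4 library, and both D6 libraries were at 25 CPM or above (log2 fold change 6.59, SE 0.23, adjusted p = 6.64e-13 for Neurog1; log2 fold change 7.07, SE 0.16, adjusted p = 6.38e-14 for Nhlh2). Scrt1 and Scrt2, zinc finger repressors of neurons that leave the cycle, rose from 0.741 ± 0.207 to 51.8 ± 4.94 CPM and from 0.783 ± 0.0146 to 60.0 ± 6.76 CPM. Neurog2, a relative of Neurog1, stood at 0.343 and 0.661 CPM at D4 and 4.81 and 5.09 CPM at D6. It passed with a smaller change (log2 fold change 3.32, SE 0.37, adjusted p = 1.1e-06). The list also rose in WT, where 18 rose and 0 fell (median 4.46). The test of the difference found 0 members with a higher and 9 with a lower step in TKO, among them Neurog1 (log2 difference -1.84, SE 0.62, adjusted p = 0.0458). With edgeR 0 of 20 proneural factors fell in TKO, and 0 did so under any alternative, DESeq2 among them.

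Genes of the neuronal cytoskeleton and neuronal RNA-binding proteins rose almost without exception: 21 of 22 members tested rose and 1 fell (median log2 fold change 2.12). Dcx, the microtubule-binding doublecortin of migrating neurons, stood at 3.32 and 4.23 CPM at D4 and 154 and 205 CPM at D6. Tubb3, the neuronal beta-tubulin, stood at 67.8 and 64.8 CPM at D4 and 452 and 596 CPM at D6. The libraries of the 2 days did not come near each other for either gene (log2 fold change 5.58, SE 0.17, adjusted p = 1.44e-13 for Dcx; log2 fold change 2.98, SE 0.20, adjusted p = 1.99e-09 for Tubb3). Stmn4, a tubulin-binding stathmin, rose from 0.562 ± 0.0946 to 14.5 ± 3.98 CPM, Celf3, a neuronal splicing regulator, rose from 3.05 ± 0.297 to 51.2 ± 11.3 CPM and Mapt, which encodes tau, rose from 1.70 ± 0.172 to 26.2 ± 6.32 CPM. Prph, the peripheral neuron filament peripherin, was the member that fell, from 15.5 ± 2.20 to 8.28 ± 0.588 CPM. In WT 19 members rose and 2 fell. The step was higher in TKO for 8 members and lower for 4, with Stmn4 higher (log2 difference 1.56, SE 0.38, adjusted p = 0.00813) and Dcx lower (-1.22, SE 0.36, adjusted p = 0.024), and Tubb3 did not pass (adjusted p = 0.052). Summed over the list, the level was 853 and 850.0 CPM at D4 and 2914 and 3736 CPM at D6 in TKO and 920.0 and 924 CPM at D4 and 1999 and 1870.0 CPM at D6 in WT.

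Factors that specify types of neurons rose too, 21 of 29 members tested rose and 0 fell (median log2 fold change 1.92), with 1 fall without TKO D6 replicate 2. Evx1, a homeodomain factor of ventral interneurons, held 2 counts over both D4 libraries and stood at 5.28 ± 1.61 CPM at D6, a ratio of 169-fold (95% counting interval 46.3 to 1400.0). Otp, a hypothalamic and hindbrain homeodomain factor, stood at 0.114 and 0.132 CPM at D4 and 16.0 and 21.5 CPM at D6. Both D6 libraries were far above both D4 libraries (log2 fold change 7.21, SE 0.35, adjusted p = 3.76e-11). Lhx1 and Lhx5, LIM factors of interneurons, rose from 0.491 ± 0.00657 to 23.5 ± 2.79 CPM and from 0.943 ± 0.161 to 29.1 ± 6.06 CPM. In the synapse and neurotransmitter list 16 of 22 members tested rose and 1 fell (median log2 fold change 1.59). Th, the rate-limiting enzyme of dopamine synthesis, rose from 0.495 ± 0.0937 to 17.0 ± 0.210 CPM, Gad1, a GABA-synthesizing enzyme, rose from 0.294 ± 0.0516 to 5.64 ± 0.267 CPM, and Syt4, a synaptotagmin, rose from 0.287 ± 0.0792 to 5.59 ± 2.12 CPM. Syn1, a synaptic vesicle protein, was the member that fell, from 16.6 ± 1.02 to 13.8 ± 0.559 CPM, but Syn1 lost its call under 5 of 12 alternatives, among them without TKO D4 replicate 2 or TKO D6 replicate 1 (adjusted p = 0.0579 to 0.185 over those 5). Th and Gad1 stood at 1.03 ± 0.0418 and 0.636 ± 0.385 CPM in WT D6, below the TKO D6 values, but the steps did not pass the test of the difference (adjusted p = 1 and 0.98). In bulk RNA, a change in the number of cells of a type and a change in RNA per cell cannot be told apart.

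Glial genes showed no common direction. Of this list, 4 of 11 members tested rose and 3 fell (median log2 fold change 0.19), with Pdgfra, a growth factor receptor of oligodendrocyte precursors and of mesoderm and endoderm, rising from 6.99 ± 0.0698 to 18.9 ± 3.39 CPM, and Nfix, a gliogenic factor, falling from 4.89 ± 0.977 to 2.12 ± 0.0726 CPM. Nfix lost its call with length-scaled counts (adjusted p = 0.0637). Without TKO D4 replicate 2, 1 glial member rose, and without TKO D6 replicate 1 or TKO D6 replicate 2, 2 rose.

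**Figure D3:**
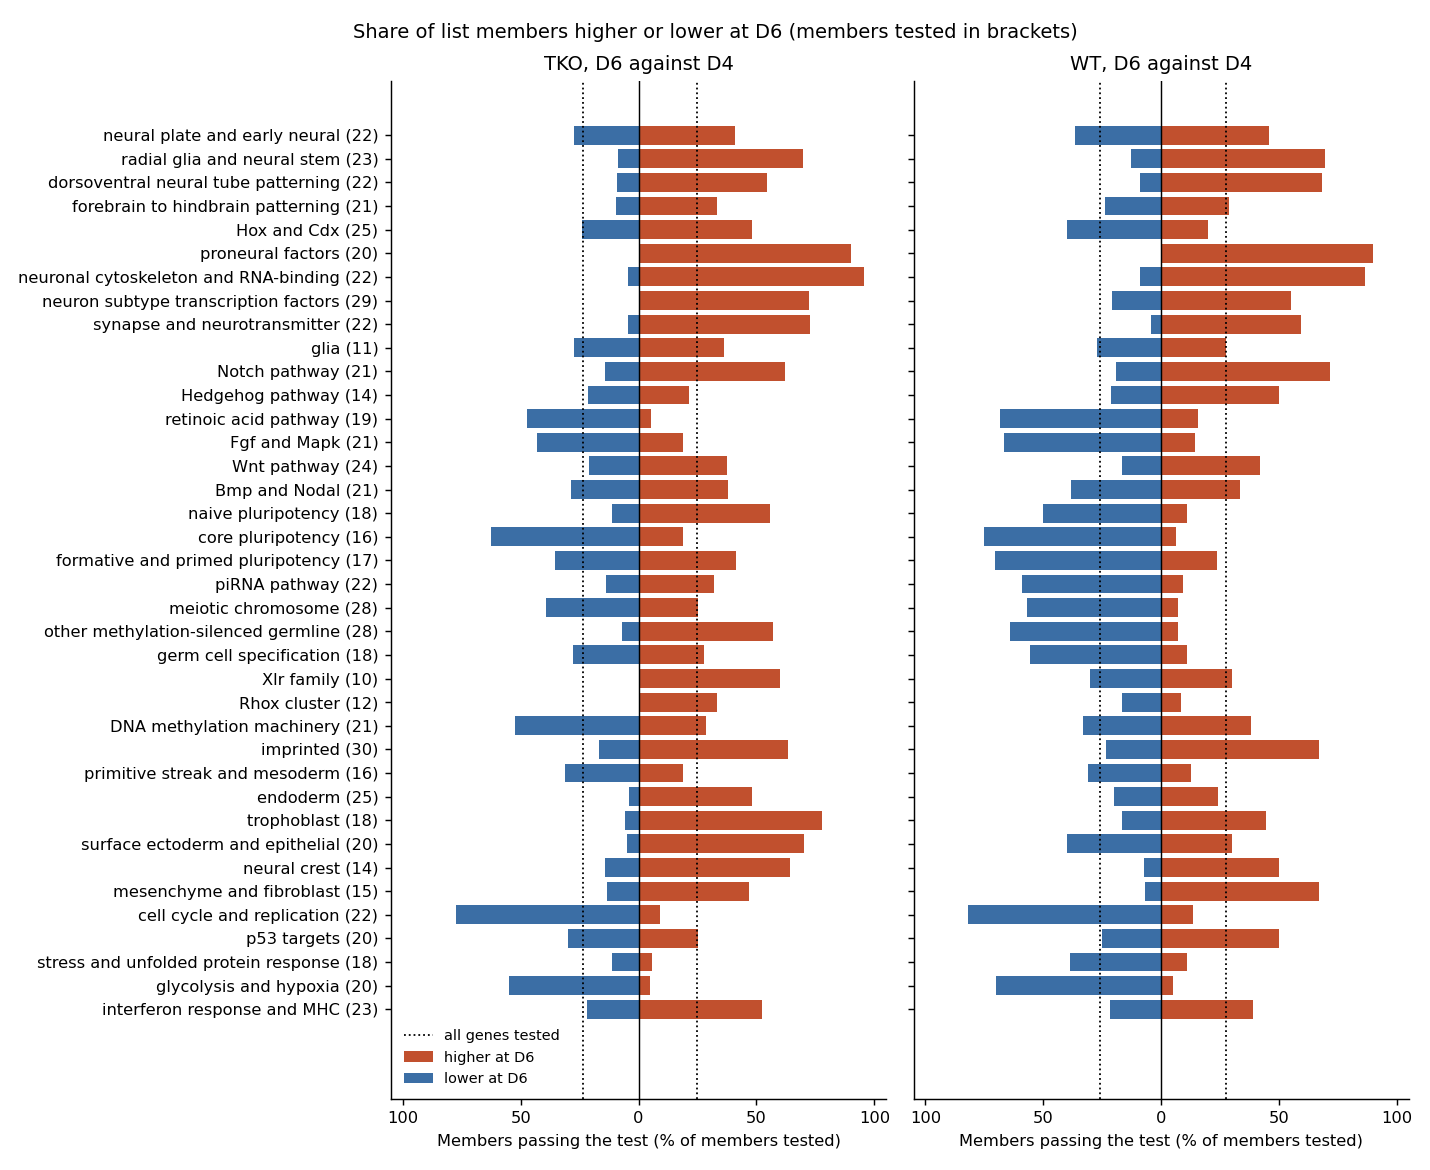
Share of the members tested of each list (lists with 10 or more members tested) that were higher (red, right) or lower (blue, left) at D6 than at D4, in TKO and in WT, with dotted lines at the shares over all genes tested. Proneural and neuronal lists lie far to the right in both genotypes, and the naive pluripotency, germline, trophoblast and epithelial lists extend further to the right in TKO than in WT.

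Other signalling lists had members that rose and members that fell. In the Fgf and Mapk list 4 of 21 members tested rose and 9 fell (median log2 fold change -0.18), against 3 and 14 in WT. The 9 falls became 5 without TKO D4 replicate 1 or TKO D6 replicate 2. Fgf15, a secreted Fgf of the neural tube, fell from 24.2 ± 0.159 to 7.67 ± 0.670 CPM, Etv4, a transcriptional target of Fgf signalling, fell from 13.7 ± 2.10 to 5.26 ± 0.0520 CPM, and Dusp4, a phosphatase of the pathway, and the receptor Fgfr3 rose, Dusp4 from 35.1 ± 1.24 to 97.2 ± 2.59 CPM and Fgfr3 from 47.2 ± 4.76 to 106 ± 6.71 CPM. Fgf5, an Fgf of the primed epiblast, stood at 1.32 and 0.859 CPM at D4 and 2.75 and 2.17 CPM at D6. It rose in TKO (edgeR, log2 fold change 1.17, SE 0.28, adjusted p = 0.00207) and fell in WT (1.10 ± 0.0797 and 0.285 ± 0.0178 CPM; log2 difference 3.10, SE 0.50, adjusted p = 0.000255), and Fgfr2 rose as well, from 44.7 ± 2.11 to 68.0 ± 7.52 CPM. Among retinoic acid genes 1 of 19 members tested rose and 9 fell (median log2 fold change -0.18). The member that rose was Cyp26b1, a retinoic acid-degrading enzyme, at 133 and 141 CPM at D4 and 230.1 and 332 CPM at D6, and its D6 libraries lay above those of D4 (log2 fold change 1.04, SE 0.19, adjusted p = 0.000243). Stra6, a vitamin A receptor, fell from 35.1 ± 0.625 to 23.6 ± 0.689 CPM but lost its call with length-scaled counts (adjusted p = 0.0528). Of the 9 falls, 4 remained in number with length-scaled counts and 5 without TKO D4 replicate 1 or TKO D6 replicate 2.

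In the Wnt list 9 of 24 members tested rose and 5 fell (median log2 fold change 0.67). Wnt7b rose from 3.61 ± 0.129 to 24.6 ± 5.58 CPM and Wnt7a from 7.76 ± 0.0521 to 35.1 ± 9.17 CPM, both Wnt ligands of the developing nervous system, and Sfrp1, a secreted inhibitor, fell from 648 ± 36.7 to 304 ± 12.0 CPM. The rise of Wnt7a was smaller than in WT, where it stood at 1.34 ± 0.159 and 55.8 ± 4.60 CPM. Wnt8a, a ligand of the early streak and posterior neural tube, had the lowest fold change of the genes named by rule. It stood at 53.7 and 46.4 CPM at D4 and 0.435 and 0.316 CPM at D6 (edgeR, log2 fold change -7.02, SE 0.29, adjusted p = 4.03e-12) and at 106 ± 15.9 and 0.0620 ± 0.0409 CPM in WT. Bmp and Nodal genes went both ways, and 8 of 21 members tested rose and 6 fell (median log2 fold change 0.07), with 3 falls without TKO D4 replicate 1 or TKO D6 replicate 2. Gdf3, a Nodal-related ligand of pluripotent cells, fell from 42.6 ± 4.32 to 8.92 ± 1.11 CPM, Lefty1, a Nodal inhibitor, fell from 37.4 ± 12.8 to 9.18 ± 2.26 CPM and Id4, a Bmp target of neural progenitors, rose from 12.9 ± 0.102 to 47.5 ± 3.49 CPM. Each of these had a smaller step than in WT, with log2 differences of 1.56, 2.68 and -1.73. Of the Hedgehog genes 3 of 14 members tested rose and 3 fell (median log2 fold change -0.03). Each share was 21.4%, near the 24.7% and 23.4% over all genes.

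Genes of pluripotency behaved differently in TKO and WT at this step. Of the naive pluripotency genes 10 of 18 members tested rose and 2 fell (median log2 fold change 0.73), whereas 2 rose and 9 fell in WT (median -0.73). The test of the difference called 15 of 18 members higher in TKO and 0 lower. Esrrb, an orphan nuclear receptor of naive cells, stood at 3.95 and 2.38 CPM at D4 and 22.8 and 14.1 CPM at D6. Both D6 libraries were above both D4 libraries, although the 2 D6 libraries lay well apart (log2 fold change 2.53, SE 0.25, adjusted p = 3.05e-07), and WT stood at 2.25 ± 0.712 and 1.68 ± 0.790 CPM. Klf5, a Kruppel-like factor of naive cells, rose from 3.84 ± 0.151 to 11.1 ± 0.273 CPM. Without TKO D6 replicate 1, 6 naive members rose. Dppa2 and Dppa4, DNA-binding partners of pluripotent cells, were the members that fell, Dppa2 from 7.87 ± 2.11 to 3.33 ± 0.785 CPM and Dppa4 from 14.04 ± 1.26 to 10.9 ± 1.16 CPM. Dppa4 lost its call without TKO D4 replicate 1 (adjusted p = 0.186) and without TKO D6 replicate 2 (0.162).

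Pou5f1 and Nanog fell less in TKO than in WT. Pou5f1, which encodes Oct4, stood at 107 and 81.1 CPM at D4 and 55.4 and 44.2 CPM at D6. Nanog stood at 45.3 and 34.2 CPM at D4 and 29.6 and 22.4 CPM at D6. For both genes the D6 libraries lay below those of D4 (log2 fold change -0.91, SE 0.22, adjusted p = 0.00247 for Pou5f1; log2 fold change -0.61, SE 0.18, adjusted p = 0.011 for Nanog), and WT stood at 77.7 ± 5.17 and 4.40 ± 1.92 CPM for Pou5f1 and at 19.4 ± 5.04 and 2.58 ± 1.07 CPM for Nanog. The log2 differences between the steps were 3.21, SE 0.36, adjusted p = 8.52e-06 for Pou5f1 and 2.28, SE 0.33, adjusted p = 0.000104 for Nanog. In TKO Nanog lost its call with DESeq2 (adjusted p = 0.0857), without TKO D4 replicate 1 (0.174) and without TKO D6 replicate 2 (0.125). In the core list 3 of 16 members tested rose and 10 fell (median log2 fold change -0.33), and 1 rose and 12 fell in WT (median -1.02), and 8 members had a higher and 2 a lower step in TKO. Lin28a, an RNA-binding inhibitor of let-7, fell from 989 ± 15.2 to 437 ± 91.1 CPM and the Nodal co-receptor Tdgf1 rose from 4.72 ± 2.14 to 11.1 ± 2.48 CPM. The fall of Lin28a did not pass the test of the difference from WT (1659 ± 16.5 and 701 ± 0.680 CPM; log2 difference 0.06, SE 0.14, adjusted p = 0.829). In the formative and primed list 7 of 17 members tested rose and 6 fell (median log2 fold change 0.15), and 4 rose and 12 fell in WT (median -1.39). Without TKO D4 replicate 1, 2 of these members fell in TKO, and without TKO D6 replicate 2, 3 fell. Krt18, a keratin of simple epithelia, rose from 16.6 ± 1.46 to 104 ± 5.94 CPM, Car4, a carbonic anhydrase, rose from 6.39 ± 0.303 to 15.6 ± 1.30 CPM and Pou3f1, which encodes Oct6, fell from 24.8 ± 2.14 to 10.7 ± 1.24 CPM. At D8 Pou5f1 was at 526 ± 37.5 CPM and Esrrb at 51.7 ± 1.78 CPM in TKO.

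Germline genes did not move as 1 group. Of 78 members tested in 3 germline lists, 30 rose, 16 fell and 32 did not pass in TKO (median log2 fold change 0.24). In WT 6 rose and 47 fell (median -1.64), and 40 members had a higher and 1 a lower step in TKO. A higher step in TKO can rest on a fall in WT, and some WT falls began at few counts. Over both WT libraries of a day, Dazl held 44 counts at D4 and 6 at D6, Tex101 15 and 0 and Rpl10l 52 and 0. Other members began higher, with 684 and 20 for Mael and 407 and 30 for Sycp3. The list of other germline genes silenced by methylation had the most rises, as 16 of 28 members tested rose and 2 fell (median log2 fold change 0.64) and 2 rose and 18 fell in WT (median -1.72). In this list 17 members had a higher and 0 a lower step in TKO, and the 16 rises became 10 without TKO D4 replicate 1 and 10 without TKO D4 replicate 2. Dazl, an RNA-binding protein of germ cells, stood at 97.5 and 115 CPM at D4 and 232 and 292 CPM at D6. Both D6 libraries were more than 2-fold above both D4 libraries (log2 fold change 1.30, SE 0.13, adjusted p = 4.24e-07), and WT stood at 0.662 ± 0.0265 and 0.0909 ± 0.129 CPM, with a log2 difference of 4.06, SE 0.76, adjusted p = 0.00103. The level of Dazl in TKO over the days from D0 to D8 was 54.2 ± 6.20, 47.7 ± 0.820, 106 ± 12.3, 262 ± 42.9 and 111 ± 2.45 CPM, so that D6 was its highest day. Other germline genes that rose had other courses. Rpl10l averaged 35.0, 47.5, 6.38, 10.4 and 16.1 CPM over these days in TKO, and Sycp3 8.60, 8.03, 0.847, 1.70 and 6.25 CPM. Both were thus lower at D6 than at D0. Tex101 averaged 0.282, 2.76, 2.38, 9.78 and 7.22 CPM and was highest at D6.

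Slc25a31, a testis ADP/ATP carrier, stood at 8.47 and 10.2 CPM at D4 and 29.6 and 33.5 CPM at D6 (edgeR, log2 fold change 1.76, SE 0.13, adjusted p = 5.06e-09). Taf7l, a germ cell paralog of the TFIID subunit Taf7, stood at 4.61 and 4.20 CPM at D4 and 16.3 and 14.5 CPM at D6 (edgeR, log2 fold change 1.80, SE 0.15, adjusted p = 3.88e-08). Tex101, a testis surface glycoprotein, stood at 2.15 and 2.61 CPM at D4 and 8.11 and 11.4 CPM at D6 (edgeR, log2 fold change 2.04, SE 0.27, adjusted p = 9.38e-06). In each case the 2 days did not overlap, and the WT level was below 1 CPM at D4 and at D6. Tuba3b, a testis alpha-tubulin, rose from 10.7 ± 0.179 to 51.1 ± 5.15 CPM, but shares 42.9% of its 31-mers with other genes. Ddx25, a testis helicase, and Zcwpw1, a meiotic histone reader, were the members that fell, Ddx25 from 17.5 ± 0.738 to 13.8 ± 0.581 CPM and Zcwpw1 from 18.9 ± 0.504 to 16.1 ± 0.846 CPM. Ddx25 lost its call under 7 of 12 alternatives, among them without any 1 of the 4 TKO libraries (adjusted p = 0.0559 to 0.162 over those 7). Zcwpw1 lost its call under 7 of 11 alternatives, among them without TKO D4 replicate 1, TKO D4 replicate 2 or TKO D6 replicate 1 (adjusted p = 0.0577 to 0.266 over those 7).

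In the piRNA list, whose members make or use the small RNAs that silence transposons, 7 of 22 members tested rose and 3 fell (median log2 fold change 0.05). These shares were 31.8% and 13.6%, against 24.7% and 23.4% over all genes. Fkbp6, a chaperone partner of the pathway, rose from 26.4 ± 0.392 to 53.2 ± 8.20 CPM, Asz1, a mitochondrial scaffold of it, rose from 9.91 ± 0.423 to 19.8 ± 2.20 CPM, and both had WT means at or below 0.51 CPM. Piwil2, a PIWI protein, fell from 18.2 ± 1.21 to 8.23 ± 1.07 CPM, Pld6, a mitochondrial nuclease, fell from 2.71 ± 0.375 to 0.908 ± 0.0553 CPM and Mael fell. Mael, which acts downstream of PIWI proteins, stood at 17.2 and 15.0 CPM at D4 and 11.0 and 11.0 CPM at D6, so that the days did not overlap (log2 fold change -0.55, SE 0.18, adjusted p = 0.015). Mael lost its call without TKO D4 replicate 1 (adjusted p = 0.124), without TKO D6 replicate 1 (0.0623) and without TKO D6 replicate 2 (0.0566). In WT it stood at 10.3 ± 0.260 and 0.313 ± 0.115 CPM (log2 difference 4.46, SE 0.37, adjusted p = 3.29e-07), and 11 piRNA members had a higher and 0 a lower step in TKO.

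In the meiotic chromosome list 7 of 28 members tested rose and 11 fell (median log2 fold change -0.31). The share that rose was 25.0%, near the 24.7% over all genes, and the share that fell was 39.3%, against 23.4% over all genes. In WT 2 rose and 16 fell, and 12 members had a higher and 1 a lower step in TKO. The falls became 7 without TKO D6 replicate 1 or with length-scaled counts, and the rises became 4 without TKO D6 replicate 2. Dmc1, the meiotic recombinase, fell from 4.71 ± 0.496 to 1.72 ± 0.351 CPM, Mei4, needed for meiotic breaks, fell from 2.05 ± 0.420 to 0.765 ± 0.188 CPM and Mnd1, a Dmc1 cofactor, fell from 30.8 ± 2.55 to 12.3 ± 1.12 CPM. Msh5, a crossover protein, rose from 2.56 ± 0.260 to 5.83 ± 0.110 CPM, but lost its call with length-scaled counts (adjusted p = 0.0585). Sycp3, a component of the synaptonemal complex, stood at 1.00 and 0.694 CPM at D4 and 1.36 and 2.04 CPM at D6. It rose (log2 fold change 0.96, SE 0.31, adjusted p = 0.0151) from a low level and fell in WT (6.11 ± 1.58 and 0.481 ± 0.209 CPM; log2 difference 4.64, SE 0.43, adjusted p = 1.04e-06), and in TKO it lost its call without TKO D4 replicate 2 (adjusted p = 0.12) and without TKO D6 replicate 2 (0.171). In the germ cell specification list 5 of 18 members tested rose and 5 fell (median log2 fold change 0.22). Each share was 27.8%, near the 24.7% and 23.4% over all genes. Stra8, the gatekeeper of meiotic entry, stood at 12.7 and 7.50 CPM at D4 and 0.174 and 0.175 CPM at D6. It was among the lowest changes of genes at 5 CPM or more (log2 fold change -5.83, SE 0.42, adjusted p = 1.83e-08), and the WT D6 libraries held 0 counts. Tfap2c, a factor of germ cell and trophoblast specification, rose from 4.10 ± 1.12 to 14.7 ± 0.616 CPM. Dppa3, a maternal factor of naive and germ cells, rose from 0.117 ± 0.118 to 1.48 ± 0.00270 CPM, and the WT level of Tfap2c was 3.27 ± 0.314 and 2.74 ± 0.238 CPM.

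**Figure D4:**
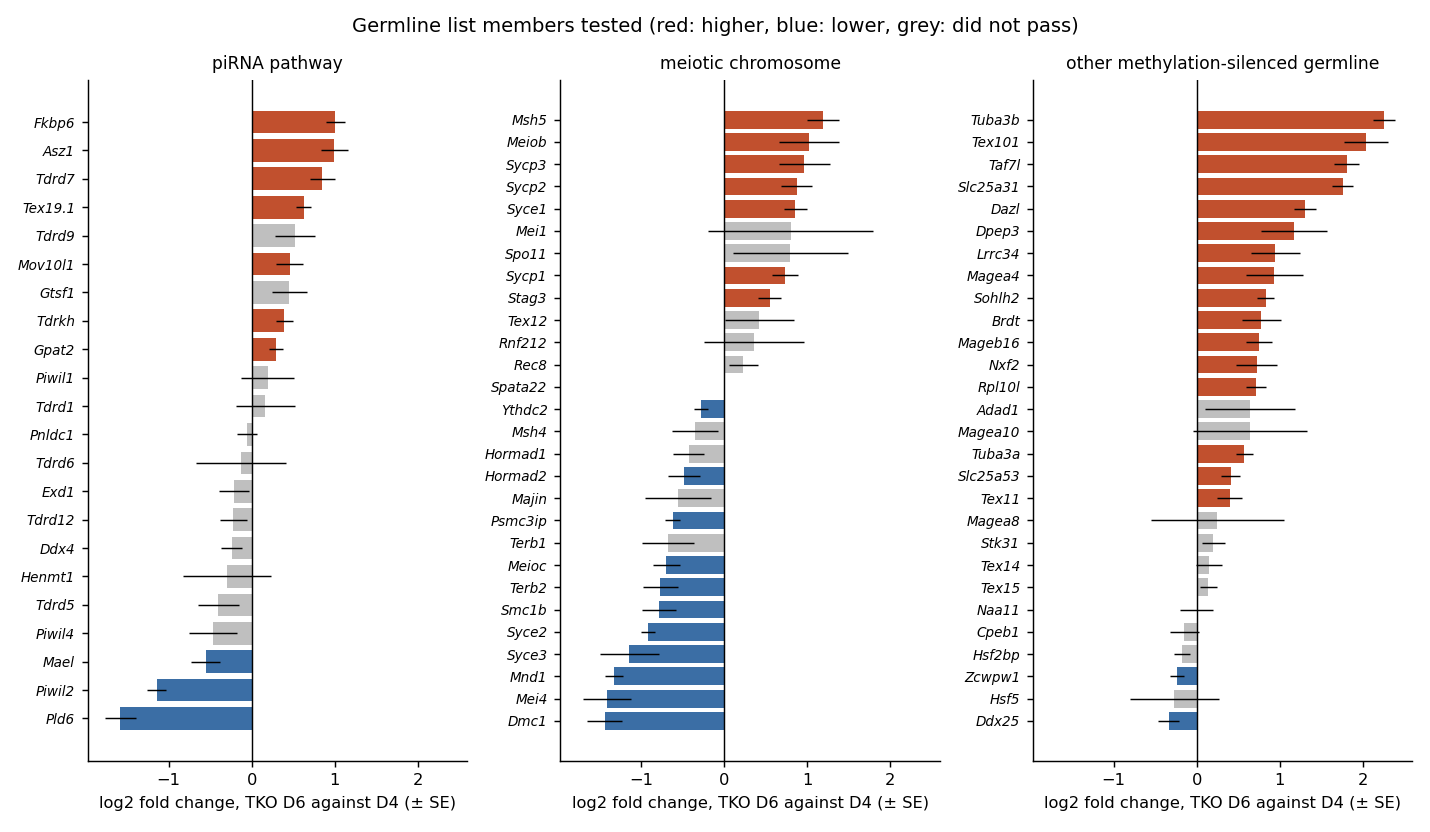
Log2 fold change of TKO D6 against D4 with its standard error for every tested member of 3 germline lists, red where a gene rose, blue where it fell and grey where it did not pass. Red bars outnumber blue ones in the right panel (16 and 2), and blue bars outnumber red ones among meiotic chromosome genes (11 and 7).

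Promoters from RefSeq (GRCm38.p6, 250 bases before to 50 after the first annotated start listed for a gene) were matched for 28 of the 30 germline members that rose, 13 of the 16 that fell and 26 of the 32 that did not pass. Printed are those of 3 genes that rose and of Dmc1, which fell, chosen after their values were seen to show the CG dinucleotides, in capitals, that methylation could occupy.
Dazl: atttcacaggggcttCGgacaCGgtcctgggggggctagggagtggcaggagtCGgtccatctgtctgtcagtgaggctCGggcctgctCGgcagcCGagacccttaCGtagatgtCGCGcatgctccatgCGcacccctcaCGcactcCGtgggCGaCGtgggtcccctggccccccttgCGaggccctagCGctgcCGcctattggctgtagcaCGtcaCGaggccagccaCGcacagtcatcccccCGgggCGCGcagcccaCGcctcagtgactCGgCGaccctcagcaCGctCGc
Slc25a31: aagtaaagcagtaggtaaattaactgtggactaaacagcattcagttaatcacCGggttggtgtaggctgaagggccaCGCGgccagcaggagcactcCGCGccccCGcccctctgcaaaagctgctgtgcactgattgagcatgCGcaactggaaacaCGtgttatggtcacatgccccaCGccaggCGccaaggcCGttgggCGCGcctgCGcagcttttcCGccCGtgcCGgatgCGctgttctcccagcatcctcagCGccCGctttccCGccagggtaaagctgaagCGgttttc
Tex101: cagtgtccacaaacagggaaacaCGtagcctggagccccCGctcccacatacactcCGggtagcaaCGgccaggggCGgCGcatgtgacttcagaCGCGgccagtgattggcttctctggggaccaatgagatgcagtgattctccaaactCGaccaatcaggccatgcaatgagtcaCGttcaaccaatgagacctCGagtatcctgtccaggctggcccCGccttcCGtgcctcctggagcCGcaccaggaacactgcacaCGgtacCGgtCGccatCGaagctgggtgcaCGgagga
Dmc1: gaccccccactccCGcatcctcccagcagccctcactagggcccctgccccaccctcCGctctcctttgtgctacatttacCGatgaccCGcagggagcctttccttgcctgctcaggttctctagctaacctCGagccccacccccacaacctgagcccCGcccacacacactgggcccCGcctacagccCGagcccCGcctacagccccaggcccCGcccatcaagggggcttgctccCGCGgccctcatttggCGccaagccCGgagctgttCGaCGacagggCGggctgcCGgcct
These windows are chr17:50293571-50293870 on the minus strand for Dazl, chr3:40708621-40708920 on the plus strand for Slc25a31, chr7:24672001-24672300 on the minus strand for Tex101 and chr15:79605060-79605359 on the minus strand for Dmc1. They hold 28, 22, 19 and 18 CG dinucleotides, against a median of 18 over 13027 promoters of genes tested. The window of Tex101 lies inside the gene as annotated in GENCODE M21 (chr7:24668007-24676675), and which start was in use was not tested. Members that rose had a median of 16.5 CG, members that fell 19 and members that did not pass 20, with ranges of 2 to 30, 5 to 41 and 5 to 48 that overlap throughout. The motif CACGTG, which is its own reverse complement, was in 9 of 28 promoters of members that rose (32.1%), in 2 of 13 that fell (15.4%) and in 9 of 26 that did not pass (34.6%). It was in 9.36% of the promoters of genes tested and in 7.24% of all 27025, and of the 4 printed it is in that of Slc25a31. The motif TTCCCGC, on either strand, was in 25.0%, 15.4% and 38.5% of the 3 groups and in 7.58% of the promoters of genes tested. A match describes the letters in this window, and no binding or methylation was measured here.

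Some members of X-linked families expressed in germ cells and placenta rose in TKO, and these families were hardly counted in WT. In the Xlr family 6 of 10 members tested rose and 0 fell (median log2 fold change 0.60), and the summed level was 194 and 194 CPM at D4 and 274 and 294 CPM at D6 against 0.727 and 0.695 CPM in WT D6. Its members share 23.9% or more of their 31-mers with other genes, so that counts cannot be assigned to single members with certainty. In the Rhox cluster of homeobox genes 4 of 12 members tested rose and 0 fell (median log2 fold change 0.37). The share that rose was 33.3%, against 24.7% over all genes. Rhox9 rose from 0.641 ± 0.0649 to 8.12 ± 0.610 CPM and Rhox6 rose from 1.53 ± 0.0260 to 9.81 ± 0.582 CPM, and the step of Rhox9 was higher than in WT (log2 difference 3.02, SE 0.41, adjusted p = 5.36e-05). Without the genes that share 10% or more of their 31-mers, 0 Xlr members were left to test, and 1 of the 4 Rhox members left was called. The Rhox calls were 2 with DESeq2 and 2 without TKO D4 replicate 2.

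In the list of DNA methylation machinery 6 of 21 members tested rose and 11 fell (median log2 fold change -0.16), and the falls became 7 without TKO D6 replicate 2. Dnmt3l, the cofactor of de novo methylation, fell from 15.4 ± 3.57 to 4.71 ± 1.50 CPM and Tet2, a methylcytosine dioxygenase, rose from 14.6 ± 2.26 to 32.8 ± 0.185 CPM. Dnmt3b fell (log2 fold change -0.67, SE 0.14, adjusted p = 0.000523), while Dnmt1 and Dnmt3a did not pass. Gadd45g, a stress and proneural target gene put in this list for its proposed part in demethylation, rose from 5.75 ± 1.58 to 27.8 ± 3.10 CPM.

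Of the imprinted genes, 19 of 30 members tested rose and 5 fell (median log2 fold change 0.30). In WT 20 rose and 7 fell (median 0.43), and 8 members had a higher and 8 a lower step in TKO. Grb10, an adaptor that restrains insulin and Igf signalling, stood at 264 and 246 CPM at D4 and 27.8 and 26.6 CPM at D6. The fall was 9.38-fold (log2 fold change -3.23, SE 0.14, adjusted p = 6.03e-12) and larger than in WT, where Grb10 stood at 936 ± 44.2 and 624 ± 9.58 CPM (log2 difference -2.64, SE 0.18, adjusted p = 3.39e-08). Igf2, the insulin-like growth factor, fell in TKO and rose in WT, at 74.4 and 70.7 CPM at D4 and 24.1 and 16.5 CPM at D6 in TKO and 95.4 ± 2.73 and 163 ± 16.3 CPM in WT (log2 difference -2.60, SE 0.24, adjusted p = 1.04e-06), although 61.9% of its 31-mers lie in other annotated genes. Cdkn1c, an inhibitor of the cell cycle, rose from 15.8 ± 0.203 to 116 ± 0.358 CPM and Phlda2, a placental growth restrictor, rose from 3.01 ± 0.431 to 8.11 ± 0.206 CPM, where WT Phlda2 fell (12.6 ± 2.35 and 3.91 ± 0.517 CPM). Impact, Zdbf2 and Dlk1 were the other members that fell.

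Lists for other cell types were read next. Most epithelial and trophoblast genes rose in TKO. In the trophoblast list 14 of 18 members tested rose and 1 fell (median log2 fold change 2.58), while 8 rose and 3 fell in WT (median 1.12). In that of surface ectoderm and epithelia 14 of 20 members tested rose and 1 fell (median log2 fold change 1.31), while 6 rose and 8 fell in WT (median -0.30). The 2 lists share the keratins Krt7, Krt8, Krt18 and Krt19 as well as Tfap2c and Gata3, so their counts are not independent. The trophoblast list also shares Eomes, Gata2 and Gata3 with the list of factors that specify types of neurons. Krt8, a keratin of simple epithelia, stood at 16.3 and 14.8 CPM at D4 and 152 and 145 CPM at D6. Krt19 stood at 1.20 and 1.09 CPM at D4 and 22.9 and 25.0 CPM at D6, and Krt7 at 1.14 and 1.19 CPM at D4 and 17.0 and 14.4 CPM at D6. In all 3 the D6 libraries were far above those of D4 (log2 fold change 3.25, SE 0.08, adjusted p = 6.82e-15 for Krt8; log2 fold change 4.38, SE 0.19, adjusted p = 9.25e-12 for Krt19), and the steps were higher than in WT (log2 differences of 2.18, 2.72 and 1.31). Plac1, a placental gene, rose from 0.603 ± 0.408 to 7.57 ± 0.708 CPM and Dlx3, a homeodomain factor of epidermis and placenta, rose from 0.380 ± 0.0698 to 5.75 ± 0.0982 CPM. Esx1 was the trophoblast member that fell. Epcam, an epithelial and pluripotency adhesion molecule, was the epithelial member that fell, but its libraries overlapped between the days at 36.9 and 29.0 CPM at D4 and 30.2 and 22.0 CPM at D6. Epcam lost its call in a fit of the 2 groups alone (adjusted p = 0.116), without TKO D4 replicate 1 (0.404) and without TKO D6 replicate 2 (0.363). The summed epithelial level went from 229 and 189 CPM to 564 and 496 CPM in TKO and was 186 and 176 CPM in WT D6. The step was higher in TKO for 16 of 20 epithelial members and lower for 0, and higher for 10 of 18 trophoblast members and lower for 1.

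Of the endoderm genes, 12 of 25 members tested rose and 1 fell (median log2 fold change 1.11), against 6 and 5 in WT. Sox17, an endoderm factor, stood at 1.43 and 1.78 CPM at D4 and 9.07 and 11.3 CPM at D6. It had been at 25.7 ± 0.687 CPM at D0 and 8.77 ± 1.83 CPM at D2 in TKO, so that D6 was below D0. Pdgfra, also in this list, had been at 57.3 ± 2.22 CPM at D0 in TKO, above its D6 level. The earlier days of the other members are not given here. Foxa2, Gata6 and Gata4, further endoderm factors, went from 1.14 ± 0.116 to 6.97 ± 1.26 CPM, from 2.71 ± 0.0377 to 10.5 ± 1.08 CPM and from 5.38 ± 0.981 to 17.6 ± 3.72 CPM. For each of these genes both D6 libraries were above both D4 libraries (log2 fold change 2.67, SE 0.31, adjusted p = 1.91e-06 for Sox17), and Gata4 and Gata6 had higher steps than in WT (log2 differences of 1.94 and 1.66). The steps of Sox17 and Foxa2 did not pass the test of the difference (-0.05, SE 0.75, adjusted p = 0.984 for Sox17 and 0.91, SE 0.34, adjusted p = 0.0814 for Foxa2), and both genes rose in WT, Sox17 at 0.196 ± 0.0261 and 1.29 ± 0.613 CPM and Foxa2 at 0.632 ± 0.0698 and 2.05 ± 0.0957 CPM at D4 and D6. Apob was the member that fell and lost its call with length-scaled counts (adjusted p = 0.273). The summed endoderm level was 1196 and 1309 CPM at D4 and 2931 and 3147 CPM at D6 in TKO and 835 and 708 CPM at D4 and 1070.0 and 924 CPM at D6 in WT. Most of this sum came from members not named here, since each factor above averaged 17.6 CPM or less at TKO D6. The sum thus does not measure the endoderm factors. In the primitive streak and mesoderm list 3 of 16 members tested rose and 5 fell (median log2 fold change -0.36). T, the streak factor brachyury, stood at 2.72 and 2.35 CPM at D4 and 1.59 and 0.842 CPM at D6, low at both days and lower at D6 (edgeR, log2 fold change -1.04, SE 0.40, adjusted p = 0.0391), but T lost its call under 5 of 12 alternatives, among them without TKO D4 replicate 1, TKO D4 replicate 2 or TKO D6 replicate 2 (adjusted p = 0.0683 to 0.272 over those 5). The mesoderm falls were 3 without TKO D4 replicate 1 or TKO D6 replicate 2.

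Neural crest genes mostly rose, 9 of 14 members tested rose and 2 fell (median log2 fold change 0.81). Ngfr, a neurotrophin receptor, rose from 3.70 ± 0.751 to 21.4 ± 4.69 CPM, with 5 rises in the list without TKO D4 replicate 2 or TKO D6 replicate 1. In the mesenchyme and fibroblast list 7 of 15 members tested rose and 2 fell (median log2 fold change 0.78), and 10 rose and 1 fell in WT (median 1.04). In TKO 1 of these members had a higher and 4 a lower step, and the 2 falls became 0 without TKO D6 replicate 2 and 1 without each of the other TKO libraries of these days. Members that rose were Acta2, smooth muscle actin, up from 28.0 ± 0.961 to 126 ± 32.6 CPM and Tagln, its actin-binding partner, up from 38.2 ± 2.82 to 93.2 ± 29.2 CPM. The interferon and MHC list had 12 rises and 5 falls of 23 tested, against 9 and 5 in WT, and 2 members had a higher and 1 a lower step in TKO. Over all genes 8.54% had a higher and 8.55% a lower step, so these counts of the list were near or below those shares. Mx1, an interferon-induced GTPase, rose from 6.40 ± 0.478 to 30.3 ± 0.213 CPM, against 1.41 ± 0.136 and 1.32 ± 0.276 CPM in WT (log2 difference 2.34, SE 0.26, adjusted p = 6.45e-06). The interferon rises became 7 without TKO D4 replicate 1, without TKO D6 replicate 1 or with length-scaled counts, and the falls became 3 without TKO D4 replicate 1, TKO D4 replicate 2 or TKO D6 replicate 2. Of the 2-cell-like genes 4 could be tested and 0 passed with edgeR or with DESeq2, with 0 also at an unadjusted p under 0.05. What part other cell types in the culture had in the neural and germline changes was not tested.

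Cell cycle and glycolysis genes fell more often than they rose. In the cell cycle and replication list 2 of 22 members tested rose and 17 fell (median log2 fold change -0.49), and 3 rose and 18 fell in WT (median -0.53). Mcm5, a subunit of the replicative helicase, fell from 575 ± 3.66 to 332 ± 3.93 CPM and Ccne1, the cyclin of S phase entry, fell from 132 ± 5.22 to 66.8 ± 2.98 CPM. Ccnd2, a cyclin of neural progenitors, and Myc were the members that rose, Ccnd2 from 259 ± 29.4 to 568 ± 1.88 CPM and Myc from 8.19 ± 0.316 to 13.0 ± 1.76 CPM. In the glycolysis and hypoxia list 1 of 20 members tested rose and 11 fell (median log2 fold change -0.61), and Slc2a1, the glucose transporter, went from 703 ± 84.7 to 318 ± 39.5 CPM, and 10 of the 20 members share 10% or more of their 31-mers, without which 3 fell. The rise became 0 without TKO D4 replicate 1, TKO D4 replicate 2 or TKO D6 replicate 2. Of the p53 targets 5 of 20 members tested rose and 6 fell (median log2 fold change 0.07). These shares, 25.0% and 30.0%, lay near the 24.7% and 23.4% over all genes. In this list 1 member had a higher and 11 a lower step than in WT. The p53 rises were 3 without TKO D4 replicate 1, TKO D4 replicate 2 or TKO D6 replicate 1. Cdkn1a, the cell cycle inhibitor p21, rose from 144 ± 1.37 to 186 ± 4.72 CPM, less than in WT (63.6 ± 0.559 and 158 ± 10.0 CPM; log2 difference -0.95, SE 0.09, adjusted p = 1.98e-06). Of the stress and unfolded protein genes 1 of 18 members tested rose and 2 fell (median log2 fold change 0.04). The rise became 0 without TKO D4 replicate 1, TKO D4 replicate 2 or TKO D6 replicate 2, and the falls became 1 without TKO D4 replicate 1 and when either TKO D6 replicate was left out.

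Beyond the lists, the 8 highest changes among genes at 5 CPM or more included Cartpt, Cnmd and Lamp5 besides the neuronal factors above. Cartpt, a neuropeptide of hypothalamic and other neurons, held 2 counts over the D4 libraries and stood at 14.4 ± 4.82 CPM at D6, a ratio of 460.0-fold (95% counting interval 127 to 3800.0). Cnmd, which encodes chondromodulin, stood at 0.0572 and 0.0661 CPM at D4 and 14.8 and 17.6 CPM at D6, and Lamp5, a lysosomal membrane protein of neurons, at 0.172 and 0.231 CPM at D4 and 12.4 and 16.9 CPM at D6. The D4 libraries of both were under 1 CPM, and both steps were higher than in WT (log2 differences of 5.87 and 2.54). Among the lowest changes besides Wnt8a, Stra8 and Grb10 were those of Fosb, an immediate early factor, from 38.8 ± 5.84 to 1.88 ± 0.778 CPM, Sfrp5, a Wnt inhibitor, from 7.81 ± 1.61 to 0.906 ± 0.257 CPM, Pla2g1b, a secreted phospholipase, from 5.18 ± 0.0804 to 0.680 ± 0.267 CPM and Wt1, a zinc finger factor of kidney and gonad, from 6.61 ± 1.97 to 0.991 ± 0.360 CPM. Fosb stood at 190.2 ± 17.9 CPM at D8.

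Among the genes with a higher step in TKO the fit named Rpl10l, Tex101, Otud6a, Hormad1, Col6a5 and Cnmd, in no established order. For the first 4 the WT D6 libraries held 0 counts, so that WT fell at least 16.5-fold for Rpl10l, a testis ribosomal protein, and at least 7.24-fold for Otud6a, a deubiquitinase, where 3 counts over the group were taken as the floor. In TKO Rpl10l went from 6.38 ± 0.327 to 10.4 ± 0.603 CPM and Otud6a from 3.41 ± 0.239 to 6.18 ± 0.0625 CPM. In TKO Otud6a lost its call without TKO D4 replicate 2 (adjusted p = 0.0792) and without TKO D6 replicate 1 (0.0555). Hormad1, a meiotic axis protein, was at 10.0 and 9.65 CPM at D4 and 6.81 and 7.89 CPM at D6 in TKO. It did not pass (log2 fold change -0.43, SE 0.19, adjusted p = 0.074), so its difference rests on the fall in WT from 0.570 ± 0.156 CPM. In TKO it was called lower with DESeq2 (adjusted p = 0.0454), without the low-count filter (0.00822) and in a fit of the 2 groups alone (0.0202). Col6a5, a collagen, stood at 2.52 and 2.51 CPM at D4 and 17.0 and 17.7 CPM at D6 and fell in WT (0.499 ± 0.161 and 0.0482 ± 0.0254 CPM). Among the lowest differences were those of Ppp1r17, Kcnk9, Tll1, Wnt7a and Mab21l1. Kcnk9, a potassium channel, was at 0.716 ± 0.0294 CPM in TKO D6 and 25.7 ± 1.89 CPM in WT D6, and in TKO it lost its call without TKO D4 replicate 1 (adjusted p = 0.052). Tll1, a protease of the Bmp1 family, was at 1.92 and 1.16 CPM at D4 and 1.65 and 1.19 CPM at D6 in TKO, where the days overlapped, and rose in WT (0.692 ± 0.0683 and 8.17 ± 0.788 CPM). Ppp1r17, a phosphatase inhibitor of neurons, rose in TKO from 1.02 ± 0.0475 to 10.7 ± 2.64 CPM and in WT from 0.0306 ± 0.0433 to 7.10 ± 0.452 CPM.

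A feature of TKO D6 stood outside the lists. By counts, 4 of the 10 genes with the highest level in TKO D6 had risen at least 2-fold, namely Slc38a6, Noct, D10Wsu102e and Rab3gap1, and they were chosen by these values. In each gene 1 transcript took most of the counts at D6, 99.9% for Slc38a6, 94.0% for Noct, 100% for D10Wsu102e, which has no other, and 98.8% for Rab3gap1. Slc38a6 encodes an amino acid transporter family member, Noct a phosphatase under circadian control and Rab3gap1 a Rab regulator. The counted transcript of Slc38a6 held 52256 and 48441 counts at D4 and 411143 and 350305 counts at D6. That of Rab3gap1 held 12492 and 11250 counts at D4 and 102657 and 91657 counts at D6. The annotated transcripts of Slc38a6 and Rab3gap1 with under 100 of the shared 31-mers described next stood at 11.8 and 10.9 CPM of the unscaled library total at D4 and 13.4 and 12.5 at D6 for Slc38a6, and 37.8 and 36.8 at D4 and 39.5 and 37.9 at D6 for Rab3gap1.

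These 4 transcripts share sequence. Those of Slc38a6 and Noct hold 2452 31-mers in common, all on opposite strands, and those of Slc38a6 and D10Wsu102e 1314 on the same strand. In all, 16 transcripts of 13 genes hold at least 100 of the 3276 31-mers found in more than one of the 4, among them transcripts of Gm9864, Gm10040, Olfr784, Lrrc8d, Kif24 and Zfp934. Their summed counts took 0.56% and 0.6% of the TKO D4 libraries and 4.0% and 4.05% of the TKO D6 libraries. In WT D6 they took 0.1% and 0.08%, and in TKO D8 4.93% and 4.97%. Within TKO the D6 and D8 libraries thus stood apart from all libraries up to D4, which took at most 0.6%. The transcript of D10Wsu102e, of 123179 bases with 1881 of these 31-mers, took a large part of the WT sum and fell there, from 46386 and 42447 counts at D4 to 14859 and 13214 at D6. That of Slc38a6 held 3427 and 3095 counts in WT D4 and 7103 and 4556 in WT D6. Without D10Wsu102e the sum took 0.354% and 0.386% of the TKO D4 libraries, 3.01% and 3.073% of TKO D6, 0.026% in each WT D4 library, and 0.056% and 0.039% of WT D6. Because kallisto divides reads between transcripts that share sequence, the part of these counts that came from each gene was not tested. The identity of the shared sequence and its copies elsewhere in the genome were not analysed here.

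**Figure D5:**
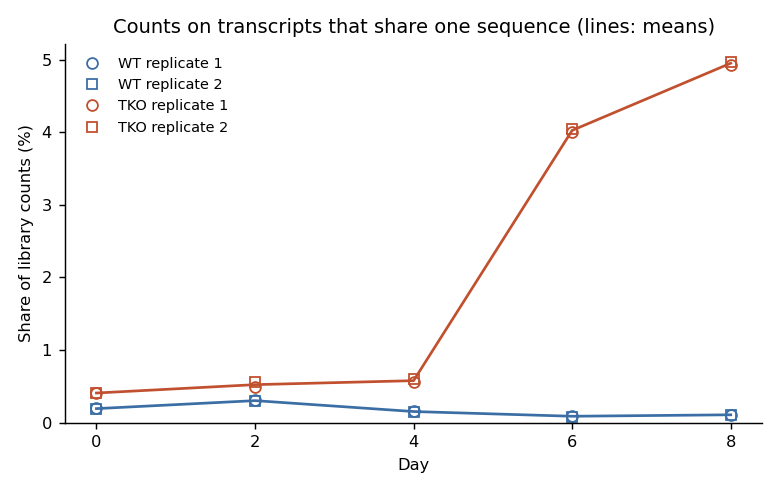
Share of each library's counts in percent (vertical axis, from 0) on the 16 transcripts that share sequence, by day, for WT and TKO libraries with lines through the means. The TKO libraries lie at 0.41% to 0.6% up to D4 and at 4.0% to 4.97% at D6 and D8, and every WT library lies at 0.31% or below.

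Genes printed here that share at least 10% of their 31-mers with other annotated genes have uncertain levels, namely Nanog, Dnmt3b, Sycp3, Lefty1, Dppa2, Dppa4, Tdgf1, Krt8, Krt18, Mnd1, Zcwpw1, Dppa3, Rpl10l, Hormad1, Mab21l1 and Rhox6 besides those said above. On GRCm38 (GENCODE M21), Dazl is ENSMUSG00000010592.9, chr17:50279395-50293636, Dcx is ENSMUSG00000031285.14, chrX:143855842-143933311, Sox1 is ENSMUSG00000096014.1, chr8:12395295-12400126, Pou5f1 is ENSMUSG00000024406.16, chr17:35506018-35510772, Esrrb is ENSMUSG00000021255.17, chr12:86361117-86521628 and Krt8 is ENSMUSG00000049382.10, chr15:101996698-102004482.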

How the data were processed

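Polyadenylated RNA of 20 WT and TKO libraries (5 days, 2 replicates each) was sequenced with a strand-specific kit, per the labels' protocols. Per the submitters' processing notes, reads were trimmed with Trim Galore 0.6.2 and quantified with kallisto (version not given in the sources used here) on GRCm38. The deposited tables hold estimated counts and TPM per transcript with its length and effective length in bases, and are described by columns est_counts and tpm per the file headers. kallisto assigns reads to transcripts by shared k-mers and divides reads that fit several.

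Transcripts were assigned to genes with GENCODE M21. Of 119414 transcripts, 116161 matched in their version and a total of 116728 by identifier. The other 2686, with 0.943% to 1.099% of each library, were left out. Estimated counts were summed over 35975 genes and rounded to whole numbers. edgeR 4.0.16 in R 4.3.3 fitted the 10 groups together by quasi-likelihood with TMM scaling, after filterByExpr (minimum count 10) kept 18555 genes. The common biological coefficient of variation was 0.0689 with 10 residual degrees of freedom. Contrasts were TKO D6 against D4, WT D6 against D4, and the difference of these steps, with Benjamini-Hochberg adjustment over all genes tested. Deposited TPM entered only the length-scaled alternative. Replicates differed by more than sampling noise in every group, as the ratio of chi-square to its degrees of freedom was 2.983 to 29.522. The 4 TKO libraries of this step held 27445109 to 35016995 counts. A group of libraries at 0 was set to a floor of 3 counts for the whole group, and counting intervals and floors cover counting error only.

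The members and the gene lists were chosen with earlier results of these data known, and the lists were compiled by hand. Named genes were 22 listed by name, up to 4 members per list with the largest TKO change (5 CPM or more, germline 1 CPM), members against their list's majority where 5 or fewer, and the extremes of the TKO step and of the difference. Not every gene that the rule names is reported here. Slc38a6, Noct, D10Wsu102e and Rab3gap1 were chosen after their values were seen. A gene was called uncertain where at least 10% of its 31-mers lie in transcripts of other genes. Promoters were from RefSeq tables of GRCm38.p6, with only the first start listed for each gene.

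Alternatives were DESeq2 1.42.0, scaling by relative log expression, the unfiltered table, a replicate block, length-scaled counts, a threshold of 0.01 for the adjusted p, a required 2-fold change, only the groups compared, genes with under 10% shared 31-mers and leaving out each library. Protein-coding genes only was added after the data were seen. On simulated data for TKO D6 against D4 with 17755 genes, 43 of 67 genes changed 1.5-fold, 58 of 67 changed 2-fold and 65 of 66 changed 4-fold were called, with 8 false calls. Only these seeded genes changed there, and all groups otherwise had equal means.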

Additional observations from a re-analysis of the deposited data

Results flagged for a closer look

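The D4 to D6 step differed between TKO and WT for 3172 genes by edgeR's test of the difference between the steps. Values here are log2 differences, TKO step minus WT step, of the named genes that passed that test, each from 2 libraries in each of 4 groups. A positive value is a step that lay higher in TKO, which can be a larger rise or a smaller fall.

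Among neural progenitor genes the differences were -0.43 for Pax6, -0.93 for Nes, -1.60 for Pou3f3, -1.21 for Pou3f2, -1.83 for Ednrb and -0.68 for Dbx1. Neural tube patterning genes gave 1.70 for Pax3, 1.28 for Olig3, 5.48 for Pax8, 0.54 for Gbx2, 2.30 for Otx2, 2.73 for Hoxd8 and -1.30 for Hoxb2. Proneural and neuronal genes gave -1.84 for Neurog1, -1.22 for Dcx, 1.56 for Stmn4, 1.22 for Prph, 1.71 for Syt4 and 2.54 for Lamp5. The growth factor receptor Pdgfra gave 1.32.

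In the Notch list the values were -1.82 for Dll4, -1.39 for Nrarp and -2.64 for Dlk1. Fgf and Wnt genes gave 3.10 for Fgf5, 2.20 for Fgf15, -1.28 for Fgfr3, -0.39 for Sfrp1, 3.60 for Wnt8a and -3.20 for Wnt7a. Bmp and Nodal genes gave 1.56 for Gdf3, 2.68 for Lefty1 and -1.73 for Id4.

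The pluripotency genes that passed lay higher in TKO, with 3.21 for Pou5f1, 2.28 for Nanog, 2.94 for Esrrb, 1.57 for Klf5, 4.71 for Dppa2, 1.29 for Dppa4, 3.62 for Tdgf1, 2.39 for Car4 and 1.25 for Pou3f1. So did these germline genes, with 4.06 for Dazl, 4.64 for Sycp3, 4.46 for Mael, 2.41 for Piwil2, 2.68 for Fkbp6, 0.78 for Mnd1, 4.71 for Taf7l, 3.21 for Slc25a31, 0.57 for Zcwpw1, 3.80 for Dppa3 and 2.09 for Tfap2c. Xlr gave 2.64 and Rhox9 3.02.

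Methylation and imprinted genes gave 1.83 for Dnmt3b, -1.03 for Gadd45g, 0.89 for Cdkn1c, -2.60 for Igf2, 3.10 for Phlda2, 0.73 for Zdbf2 and -2.64 for Grb10. Endoderm, epithelial and trophoblast genes gave 1.94 for Gata4, 1.66 for Gata6, 1.31 for Krt7, 2.18 for Krt8, 1.48 for Krt18, 2.72 for Krt19, 1.76 for Dlx3 and 2.34 for Epcam. Neural crest and smooth muscle genes gave -0.76 for Ngfr and -0.87 for Acta2. Growth, metabolism and interferon genes gave -0.72 for Ccnd2, 0.97 for Myc, -0.95 for Cdkn1a, 0.88 for Slc2a1 and 2.34 for Mx1.

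Among the remaining genes the values were 5.87 for Cnmd, 2.45 for Pla2g1b, -3.75 for Kcnk9 and -3.67 for Tll1. The genes whose counted transcripts share sequence gave 2.11 for Slc38a6, 2.28 for Noct, 3.77 for D10Wsu102e and 2.76 for Rab3gap1. Where 1 group held 3 counts or fewer no size is given, and the adjusted p of edgeR's test was 1.14e-06 for Rpl10l, 0.000385 for Tex101, 0.000469 for Otud6a, 0.0027 for Hormad1, 1.1e-06 for Col6a5, 0.000331 for Ppp1r17 and 0.0476 for Mab21l1.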

How the results depend on the processing

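Of the 150 named genes that passed in TKO, 131 kept direction and call under every alternative run on them, and the others are given with their values in the report. 0 named genes reversed direction. With a 2-fold change required, 2464 genes were called in TKO, 3121 in WT and 1391 for the difference between the steps, against 8918, 9904 and 3172, and an adjusted p under 0.01 left 1768 for the difference. Leaving out each library in turn gave 6888 to 7605 genes in TKO, 8228 to 9179 in WT and 2185 to 2699 for the difference. These fits had fewer libraries, and the lone library of its group is assumed to vary like the others. DESeq2 called 8250, 9394 and 3153 genes, with 2519 adjusted p-values not available for the difference. Length-scaled counts gave 7544, 8716 and 2193, and the cause was not tested. The counts under scaling by relative log expression, without the low-count filter, from the groups compared alone, genes with under 10% shared 31-mers and protein-coding genes only (added after the data were seen) lay within 1.5 times of these. A replicate block gave 8887, 9866 and 3179 calls. Replicate numbers do not establish a pairing, since the R1 to R2 differences of D4 and D6 correlated at 0.098 over genes in TKO and at 0.058 in WT, and the labels tie no number to a batch. With 2 libraries a group, 43 of 67 simulated 1.5-fold changes were called. Far fewer genes changed in the simulation than the 8918 called in the real TKO step. The adjusted p depends on that number, so the simulated rates do not carry over to these data.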
